A study of Mus musculus with 2 samples.

Results

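The nuclear genes for the subunits of oxidative phosphorylation were compared between libraries of TSA-treated and untreated c-Myc mouse liver. Genes were taken by symbol: the *Ndufa*, *Ndufb*, *Ndufc*, *Ndufs* and *Ndufv* series of complex I, *Sdha* to *Sdhd* of complex II, *Uqcr* symbols of complex III, *Cox4* to *Cox8* symbols of complex IV and *Atp5* symbols of complex V. Of 84 matching symbols, 79 reached the minimum of 20 summed counts, out of 13027 genes with that many counts and 21878 listed symbols. Complex I gave 37 of them, complex II 4, complex III 8, complex IV 13 and complex V 17. The *Atp5* symbols include *Atp5s* and *Atp5sl*, which are not subunits. The lowest genes inside the minimum were *Cox7a1* with 43 summed counts and *Ndufa4l2* with 47, and the highest outside it were *Cox4i2* with 11 and *Cox6a2* with 6. *Cox7b2*, *Cox8b* and *Cox8c* had no count in either library.

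Oxidative phosphorylation moves electrons from NADH and succinate through complexes I to IV of the inner mitochondrial membrane to oxygen, and uses the proton gradient this builds to drive ATP synthase, complex V. Most subunits are encoded in the nucleus and imported, and a few, which are not analysed here, are encoded in mitochondrial DNA. Hepatocytes are rich in mitochondria and oxidise fatty acids and amino acids through this chain, and their nuclear subunit genes are known targets of the transcription factors NRF1, GABP and YY1 and of the coactivator PGC-1alpha.

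PolyA RNA was sequenced from livers of FVB/N mice that carried c-Myc from hydrodynamic injection, a model of hepatocellular carcinoma; 1 library came from TSA-treated liver and 1 from untreated liver. Dose, time, age, the promoter driving c-Myc, and whether animals were pooled are not given in the labels. Total counts were 17088227 in the TSA library and 17281523 in the untreated library, and the 20 most abundant genes took 22.7% of counts in the TSA library against 7.23% in the untreated library. The hepatocyte markers checked were present in both, with all 7 higher in the TSA library (summed level 59360.5 FPKM, against 6097.72 FPKM untreated). Of 4 fetal hepatocyte markers 3 were lower (summed level 17.5 FPKM with TSA, with *Dlk1* at 0, and 3612 FPKM without), as were 4 of 4 markers of dividing cells (2.33 FPKM with TSA and 319.7 FPKM without). Summed levels of other markers were 49.8 FPKM with TSA and 25.6 FPKM without for endothelium, 98.6 and 98.4 FPKM for macrophages, 96.4 and 40.8 FPKM for stellate cells, and 420 and 149.6 FPKM for erythroid cells. The sums for macrophages and stellate cells hide markers that differed in opposite directions: 3 of 4 were higher in each list, *Clec4f* (44.3-fold) and *Dcn* (15.4-fold) among them, while *Cd68* was 3.42-fold and *Col1a1* 6.13-fold lower. With TSA and without it, the sums were 3.41 and 34.8 FPKM for cholangiocytes (2 of 4 markers higher and 2 lower), 2.88 and 0.510 FPKM for lymphocytes, 8.61 and 2.84 FPKM for neutrophils, 1.13 and 0.222 FPKM for heart muscle, and 43.6 and 6.57 FPKM for the brown fat list, whose defining markers *Ucp1* and *Cidea* were at 0 in both libraries. The part of this marker difference in the subunit results was not tested, and in bulk RNA fewer cells of a type cannot be told apart from less RNA per cell.

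Ratios are of TMM-scaled counts, TSA over untreated, with an exact 95% interval for counting error, and a gene was called when the ratio was at least 2-fold with an interval that excluded 1. With 1 library per group there is no replicate check, so a call describes these libraries and not the treatment. FPKM values, which allow levels to be compared between genes per length, are scaled to total counts, so an FPKM ratio is 0.554 times the TMM ratio. Exons of 22 of the 79 genes overlap an exon of another gene in GENCODE M21, on the same strand for *Ndufb9*, *Atp5o*, *Ndufb2* and *Ndufb8*, and on the opposite strand for *Ndufs1*, *Ndufa4l2*, *Uqcrb*, *Uqcrc2*, *Cox5a*, *Atp5a1* and *Atp5j* among others. The strand setting and the counting of reads shared with pseudogenes are not stated in the labels, so these counts are uncertain.

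The promoter windows of 5 subunit genes are shown because these genes carry the main contrasts described below or hold the searched motifs: the complex II genes with a window in the table, the complex IV gene with both the NRF1 and the ETS motif, and the complex IV gene that was lower with TSA. Each runs 5′ to 3′ on the gene's strand from 250 bases before to 50 bases after the transcription start, from RefSeq on GRCm38.p6, with motif matches in capitals. *Sdha* lies at chr13:74350191-74350490 (minus strand), *Sdhb* at chr4:140961021-140961320 (plus strand), *Sdhd* at chr9:50603800-50604099 (minus strand), *Cox6a1* at chr5:115348909-115349208 (minus strand) and *Cox6b2* at chr7:4753045-4753344 (minus strand).
Sdha: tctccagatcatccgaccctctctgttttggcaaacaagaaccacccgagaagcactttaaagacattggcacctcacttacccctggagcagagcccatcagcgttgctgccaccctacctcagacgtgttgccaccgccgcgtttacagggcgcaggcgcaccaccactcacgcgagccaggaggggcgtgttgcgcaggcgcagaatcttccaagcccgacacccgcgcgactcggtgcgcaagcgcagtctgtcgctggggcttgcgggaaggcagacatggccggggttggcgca
Sdhb: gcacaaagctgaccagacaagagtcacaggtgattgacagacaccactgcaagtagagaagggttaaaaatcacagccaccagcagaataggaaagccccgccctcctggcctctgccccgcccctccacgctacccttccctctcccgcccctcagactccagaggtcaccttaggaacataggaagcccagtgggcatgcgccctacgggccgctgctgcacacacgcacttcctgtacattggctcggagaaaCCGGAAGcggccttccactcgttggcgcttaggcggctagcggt
Sdhd: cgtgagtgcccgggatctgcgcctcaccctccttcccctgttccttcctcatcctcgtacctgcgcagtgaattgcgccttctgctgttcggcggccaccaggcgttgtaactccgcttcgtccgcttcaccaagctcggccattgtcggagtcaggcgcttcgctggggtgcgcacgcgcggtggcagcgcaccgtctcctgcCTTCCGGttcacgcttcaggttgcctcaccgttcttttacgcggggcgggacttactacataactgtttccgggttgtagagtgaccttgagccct
Cox6a1: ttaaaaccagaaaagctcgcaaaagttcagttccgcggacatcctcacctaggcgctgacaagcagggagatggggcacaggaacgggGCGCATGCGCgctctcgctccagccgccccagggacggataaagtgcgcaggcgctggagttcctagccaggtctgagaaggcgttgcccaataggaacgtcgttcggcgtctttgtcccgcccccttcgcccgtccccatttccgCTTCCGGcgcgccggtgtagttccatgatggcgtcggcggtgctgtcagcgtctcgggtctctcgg
Cox6b2: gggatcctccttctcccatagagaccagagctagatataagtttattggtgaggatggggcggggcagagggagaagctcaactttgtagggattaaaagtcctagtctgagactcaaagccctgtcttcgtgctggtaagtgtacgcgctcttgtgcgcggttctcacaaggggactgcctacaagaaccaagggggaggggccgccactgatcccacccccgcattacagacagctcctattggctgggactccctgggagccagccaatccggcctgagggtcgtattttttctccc
The windows of *Sdhb*, *Sdhd* and *Cox6a1* hold the ETS/GABP motif CCGGAAG or its reverse complement, whose first base is at position 6 in *Sdhb*, -46 in *Sdhd* and -16 in *Cox6a1*, counted with the start as 0. *Cox6a1* also holds the NRF1 motif, its first run of capitals, at position -162, and *Sdha* and *Cox6b2* hold none of the 4 motifs searched. Over the 67 of 79 genes with a window, the ETS/GABP motif was in 16 (23.9%), against 9.93% of 27025 genes in the table, and the NRF1 motif in 5 (7.46%, against 1.07%). The YY1 motif AAGATGGC was in 11 (16.4%, against 3.19%) and the E-box CACGTG, the core of sites bound by c-Myc and other factors, in 7 (10.4%, against 8.09%). The comparison shares are over all genes of that table and are not limited to genes with counts here. Motif shares among genes of like expression were not tested. Both strands were searched, and no motif contains another of the 4, although CCGGAAG and AAGATGGC can share the letters AAG. Median GC content was 57.7% over 73 windows of these genes and 52.7% over 32851 windows in all, and a motif match is a description of letters and not of binding.

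Most subunit genes differed little after TMM scaling. Of the 79 genes, 5 were called higher (*Ndufa1*, *Ndufb9*, *Sdhb*, *Uqcrq* and *Cox6c*), 1 was called lower (*Cox6b2*) and 73 were not called. This is 7.59% called, against 53.4% of all genes tested (26% higher and 27.4% lower). The lower gene, *Cox6b2*, had 5 counts with TSA and 108 without, and passed the minimum through the untreated library alone. The ratio was within 2-fold for 72 of the 79, or 91.1%, against 46.2% of all genes. The log2 ratios had a median of 0.21 and an SD of 0.65 over the 79 genes, against a median of -0.11 and an SD of 2.37 over all genes. The subunit median lay 0.32 above that of all genes, or 0.11 above genes in the same decile of expression, and 57 of the 79 lay above the all-gene median. With total counts as the scale, no subunit gene was called higher and 19 were called lower, while of all genes 2084 (16%) were called higher and 6339 (48.7%) lower, or 64.7% in all, so the direction of the set depends on the scale. DESeq2 size factors gave 7 higher and 1 lower, against 53.2% of all genes called (26.6% in each direction), and upper quartiles 6 higher and 1 lower, against 53.3% (26.4% higher and 26.9% lower).

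**Figure D1:**
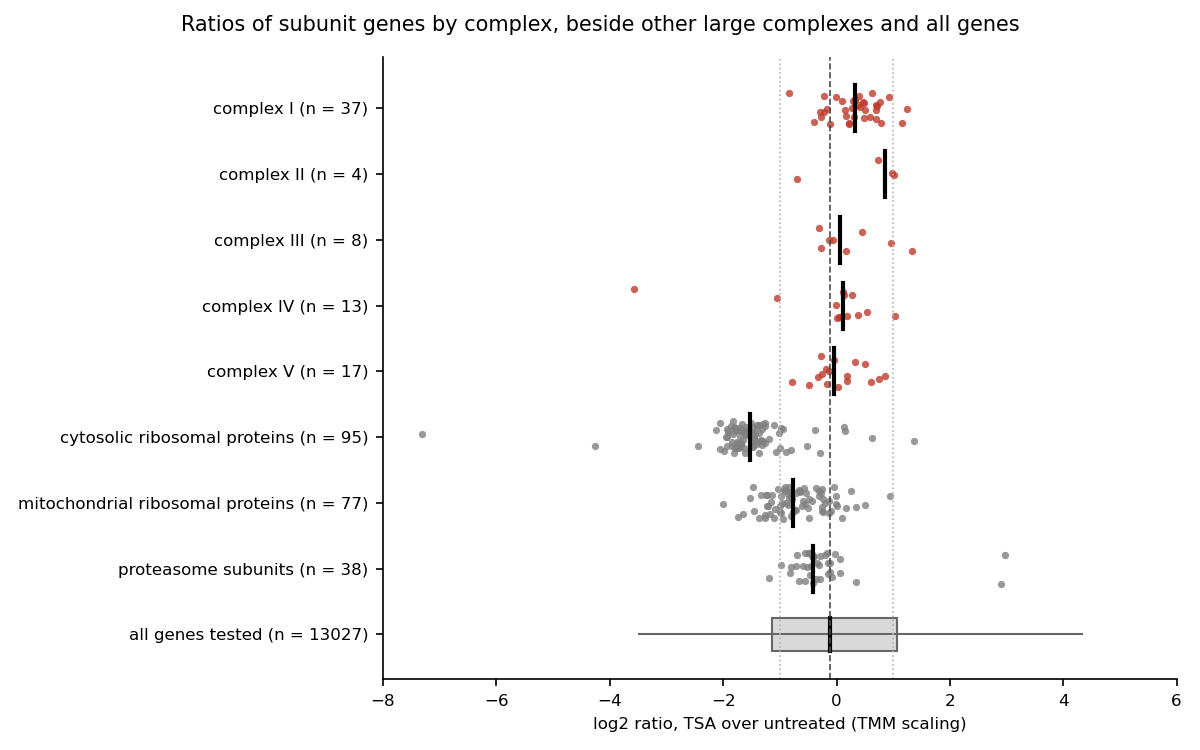
Log2 ratios (TSA over untreated, TMM scaling) of the subunit genes of complexes I to V (red points, 1 per gene) and of cytosolic ribosomal, mitochondrial ribosomal and proteasome genes (grey points); black bars are group medians. The box for all 13027 genes spans the quartiles and its line the 5th to 95th percentiles, the dashed line is the median of all genes and the dotted lines mark 2-fold; 72 of the 79 subunit genes lie between the dotted lines.

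Calls were about as frequent among genes with at least 1000 summed counts as among all genes, and more frequent in the top decile by level. Among 6178 genes with at least 1000 summed counts, 51.6% were called (23.6% higher and 27.9% lower), and of the 72 subunit genes in that class 5 were called higher and none lower, or 6.94%. In the top decile of genes by mean FPKM, which held 67 of the 79, 65.3% of genes were called and 5 of these 67. The subunit genes had short models, with a median of 754 bases against 3456 for all genes, and 59 lay in the shortest decile, where 55.0% of genes were called.

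**Figure D2:**
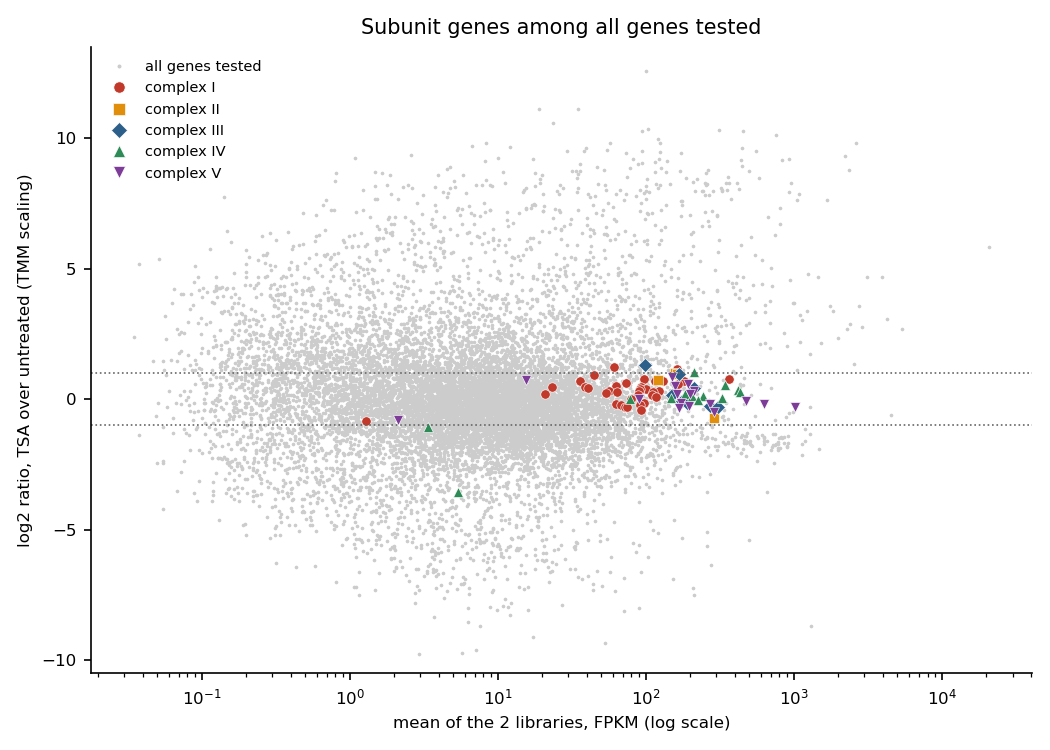
Log2 ratio (TSA over untreated, TMM scaling) against the mean level of the 2 libraries in FPKM (log axis) for the subunit genes by complex (coloured symbols) among all 13027 genes tested (grey points), with dotted lines at 2-fold. Most of the subunit genes lie in a narrow band at high levels, where 65.3% of all genes of the top decile were called and 5 of the 67 subunit genes there.

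As a part of each library the subunit genes took 0.998% of counts with TSA (exact 95% interval 0.993% to 1.003%) and 1.66% without (1.65% to 1.67%). Their summed level was 10013.4 FPKM in the TSA library and 15804.0 FPKM in the untreated library. A lower FPKM with TSA was seen for 71 of the 79, and for 9293 of all 13027 genes tested. When the 20 most abundant genes of each library were taken out, the shares were 1.29% with TSA and 1.79% without. The order of levels among the subunit genes was alike in both libraries (Pearson's r 0.94 and Spearman's rho 0.92 across the 79 genes, log2 of FPKM + 0.1, against 0.66 and 0.69 across all genes); this is a correlation across genes that share 2 libraries, and genes are not independent replicates.

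**Figure D3:**
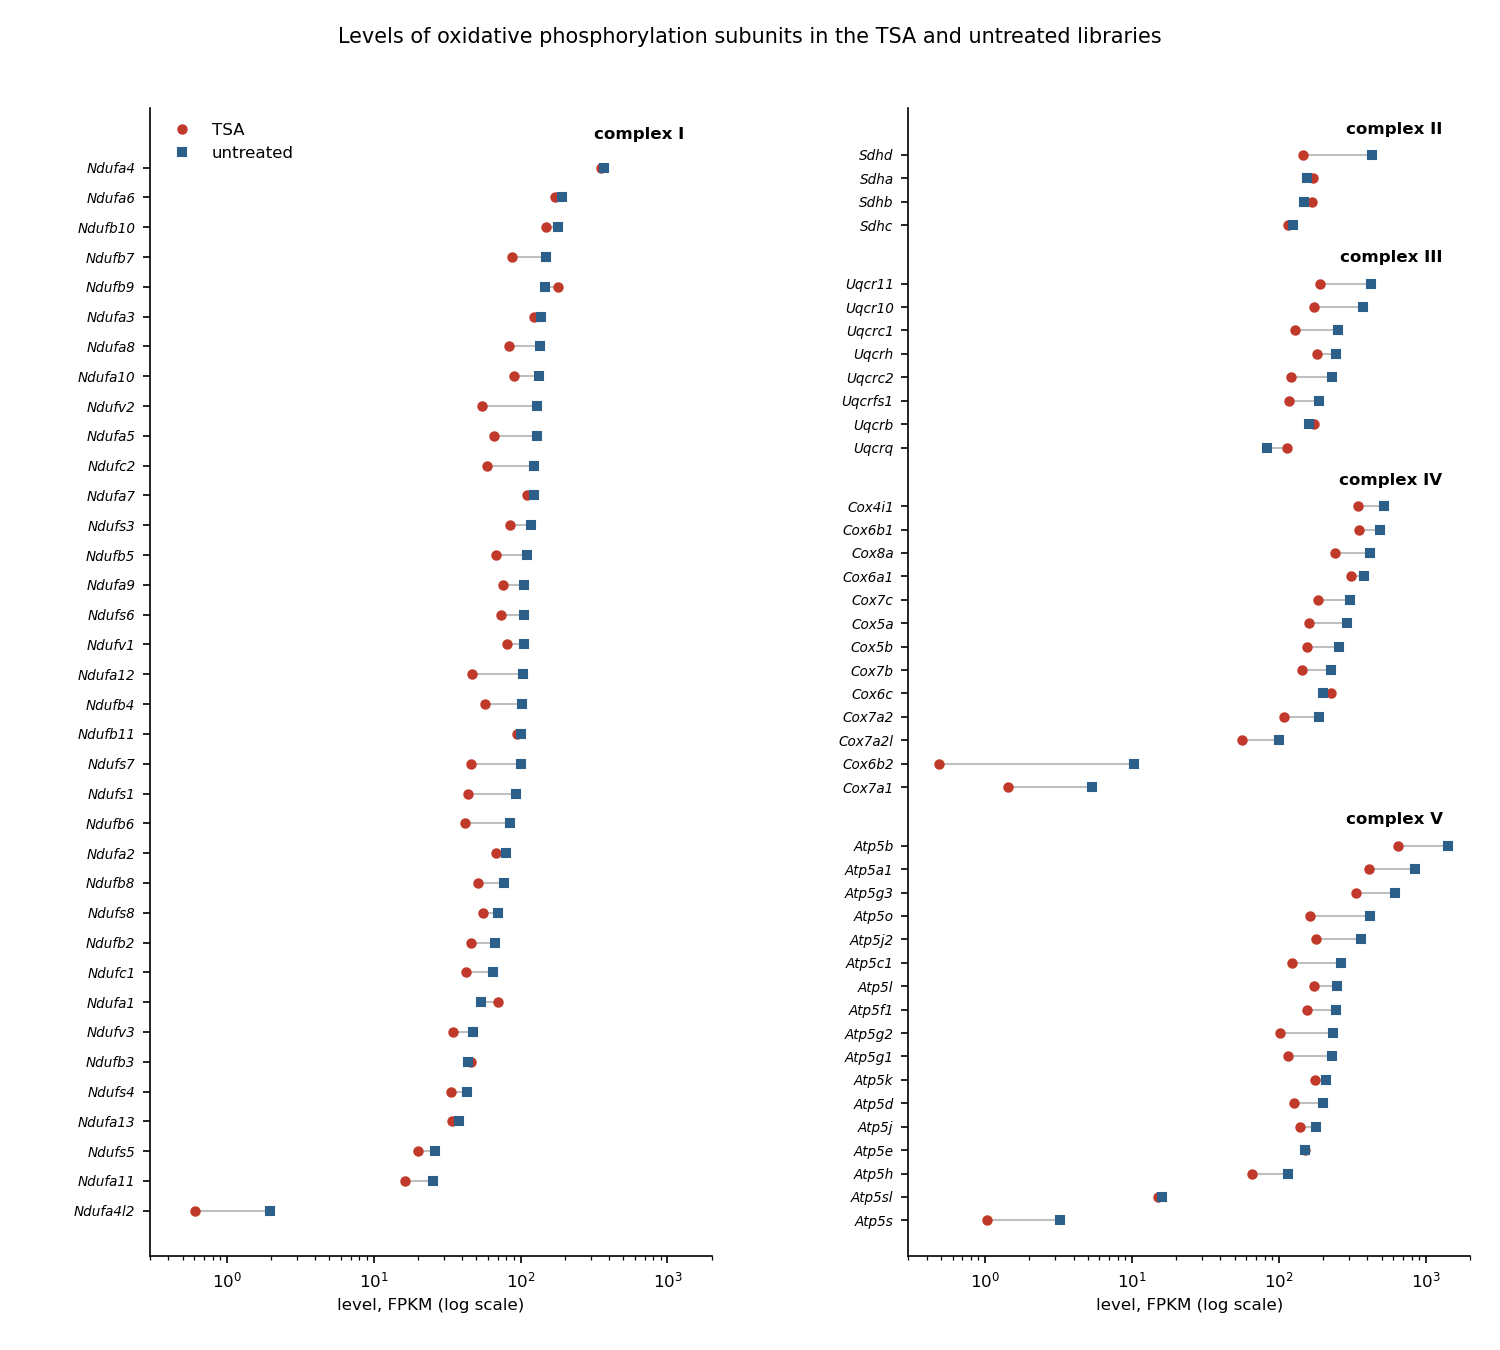
Level of each subunit gene shown, in FPKM (log axis) in the TSA library (red circles) and the untreated library (blue squares), by complex, with genes ordered by the untreated level and a grey line joining the pair. *Atp5b* has the highest level in both libraries (643 FPKM with TSA, 1407 FPKM untreated), and *Cox6b2* the widest gap.

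Complex I, the NADH dehydrogenase, gave 2 genes called higher and none lower among 37, against 26% and 27.4% of all genes. With total counts none was higher and 7 were lower, against 16% and 48.7% of all genes. The median log2 ratio was 0.33, or 0.44 above that of all genes, with a range of -0.84 to 1.23. *Ndufa1*, a small accessory subunit of the membrane arm, had 588 counts (69.7 FPKM) with TSA and 456 counts (53.4 FPKM) without, a ratio of 2.35 (2.08 to 2.67). *Ndufb9*, another accessory subunit of that arm, had 2001 counts (180 FPKM) with TSA and 1650 counts (147 FPKM) without, a ratio of 2.21 (2.07 to 2.36). Both were among the few subunit genes with a higher FPKM in the TSA library.

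The core subunits of complex I carry its redox centres, and the core genes described here lay on both sides of a ratio of 1. *Ndufs1*, the largest iron-sulfur subunit, had 2234 counts (43.9 FPKM) with TSA and 4768 counts (92.6 FPKM) without, a ratio of 0.855 (0.813 to 0.899). *Ndufv1*, which binds NADH and the flavin, had 2231 counts (81.2 FPKM) with TSA and 2920 counts (105 FPKM) without, a ratio of 1.39 (1.32 to 1.47). Its partner *Ndufv2* stood lower, with 1528 counts (54.6 FPKM) with TSA and 3686 counts (130 FPKM) without, a ratio of 0.757 (0.712 to 0.803). *Ndufs3* was at 1.31, *Ndufs8* at 1.41 and *Ndufs7* at 0.826, and none of these was called.

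The accessory genes not called ran from 0.814 for *Ndufa12* to 1.90 for *Ndufb3*. *Ndufa4*, named for complex I but known as a subunit of complex IV, had the highest level in the series of *Nduf* symbols, 355 FPKM with TSA and 372 FPKM without (2983 and 3161 counts), a ratio of 1.72 (1.64 to 1.81). Its paralogue *Ndufa4l2*, known as a gene induced by hypoxia, had 11 counts (0.607 FPKM) with TSA and 36 counts (1.97 FPKM) without, a ratio of 0.558 (0.256 to 1.12) whose interval includes 1. It passed the minimum through the untreated library alone.

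Complex II, succinate dehydrogenase, joins the TCA cycle to the chain and has no mitochondrially encoded subunit. The median log2 ratio of its genes was 0.86, or 0.97 above all genes. Its 4 genes did not move together: 3 had ratios of 1.66 to 2.03 and *Sdhd* a ratio below 1. *Sdha*, the flavoprotein that oxidises succinate, had 8305 counts (170 FPKM) with TSA and 7672 counts (155 FPKM) without, a ratio of 1.98 (1.92 to 2.04) just under the threshold. *Sdhb*, the iron-sulfur subunit, had 3095 counts (168 FPKM) with TSA and 2782 counts (149 FPKM) without, a ratio of 2.03 (1.93 to 2.14), called higher. *Sdhc*, a membrane anchor, had 2323 counts (115 FPKM) with TSA and 2548 counts (125 FPKM) without, a ratio of 1.66 (1.57 to 1.76). *Sdhd*, the other anchor, had 3216 counts (146 FPKM) with TSA and 9513 counts (428 FPKM) without, 1.62-fold lower (ratio 0.617, 0.593 to 0.642) and not called.

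Ratios between genes of the same library do not depend on its scaling. The *Sdha* level was 1.16 times that of *Sdhd* with TSA and 0.362 times without, so that the ratio of the ratios was 3.20 (exact 95% interval 3.04 to 3.37). Relative to *Sdhd*, *Sdhb* gave 3.29 (3.08 to 3.51) and *Sdhc* 2.70 (2.52 to 2.89). Between *Sdha* and *Sdhb* the same value was 0.973 (0.916 to 1.03), whose interval includes 1, with an *Sdha* level 1.01 times that of *Sdhb* with TSA and 1.04 times without. The untreated library therefore held more *Sdhd* RNA than that of the other 3 genes, and the TSA library held all 4 at 115 to 170 FPKM.

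Complex III, the cytochrome bc1 complex, gave 1 gene called higher and none lower among 8, against 26% and 27.4% of all genes. With total counts none was higher and 2 were lower, against 16% and 48.7% of all genes. The median log2 ratio was 0.05 (0.16 above all genes, but -0.10 relative to genes of like expression). *Uqcrq*, a small subunit that binds ubiquinone, had 3064 counts (114 FPKM) with TSA and 2235 counts (82.4 FPKM) without, a ratio of 2.50 (2.37 to 2.64), the highest of the 79. *Uqcrb*, another small subunit, had 1489 counts (173 FPKM) with TSA and 1391 counts (160 FPKM) without, a ratio of 1.95 (1.81 to 2.10). The core protein gene *Uqcrc1* had 3622 counts (128 FPKM) with TSA and 7230 counts (253 FPKM) without, a ratio of 0.914 (0.878 to 0.952). *Uqcrfs1*, the Rieske iron-sulfur protein, had 2612 counts (116 FPKM) with TSA and 4239 counts (187 FPKM) without, a ratio of 1.12 (1.07 to 1.18). The lowest ratio was that of *Uqcr11*, with 1414 counts (190 FPKM) with TSA and 3186 counts (423 FPKM) without, a ratio of 0.810 (0.760 to 0.863). *Uqcrc2*, *Uqcrh* and *Uqcr10* had ratios of 0.956, 1.36 and 0.831.

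Complex IV, cytochrome c oxidase, gave 1 gene called higher and 1 lower among 13, against 26% and 27.4% of all genes. With total counts none was higher and 2 were lower, against 16% and 48.7% of all genes. The median log2 ratio was 0.12 (0.23 above all genes, but -0.032 relative to genes of like expression). *Cox6c*, a small subunit, had 1940 counts (226 FPKM) with TSA and 1724 counts (198 FPKM) without, a ratio of 2.05 (1.92 to 2.19). *Cox4i1*, the most abundant of the complex in the untreated library, had 4515 counts (346 FPKM) with TSA and 6826 counts (517 FPKM) without, a ratio of 1.21 (1.16 to 1.25). *Cox5a* had 1904 counts (161 FPKM) with TSA and 3510 counts (293 FPKM) without, a ratio of 0.990 (0.936 to 1.05). The ratios of *Cox5b*, *Cox6a1*, *Cox6b1*, *Cox7a2*, *Cox7a2l*, *Cox7b*, *Cox7c* and *Cox8a* lay between 1.01 for *Cox7a2l*, which acts in supercomplex assembly, and 1.46 for *Cox6a1*. None of these 8 was called.

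Several complex IV subunits have paralogues for certain tissues, and these were low in both libraries beside the main form of the same subunit. *Cox6b2*, known as the testis form, had 5 counts (0.483 FPKM) with TSA and 108 counts (10.3 FPKM) without, 11.8-fold lower (4.92 to 37.2). It made up 0.137% of the *Cox6b* level with TSA and 2.06% without, and relative to *Cox6b1* it was 15.3-fold lower (6.35 to 48.2). *Cox7a1*, the heart and skeletal muscle form, had 9 counts (1.44 FPKM) with TSA and 34 counts (5.38 FPKM) without, a ratio of 0.483 (0.204 to 1.03). It was 0.867% of the *Cox7a* level with TSA and 1.84% without, and relative to *Cox7a2* it was 2.17-fold lower (1.02 to 5.16). Both genes passed the minimum through the untreated library alone.

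*Cox4i2*, a form induced by low oxygen in lung, made up 0.023% of the *Cox4* level with TSA and 0.041% without, from 3 and 8 counts. *Cox6a2*, the muscle form, had 0 of 2804 *Cox6a* counts with TSA, which allows a share of up to 0.107%, and 6 counts (0.138% of the level) without. *Cox7b2*, *Cox8b* and *Cox8c* had 0 counts in both libraries, which allows up to 0.123% of *Cox7b* counts and 0.134% of *Cox8* counts with TSA, and 0.0766% and 0.0759% without. Of the 7 striated muscle markers checked, *Ckm*, the muscle creatine kinase, had 0 counts with TSA and 79 without. The other 6 had 0 to 3 counts with TSA and 0 to 7 without, with *Acta1*, *Mb*, *Myh4* and *Actn3* at 0 with TSA, *Myh4* at 0 in both, and *Myh1* and *Tnnt3* each 1 count higher with TSA. Their summed level was 0.099 FPKM with TSA and 3.74 FPKM without, of which *Ckm* gave 3.23 FPKM, and their part in the *Cox7a1* and *Cox6a2* values was not tested.

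Complex V, ATP synthase, gave no call among 17 genes, against 53.4% of all genes called. With total counts none was higher and 7 were lower, against 16% and 48.7% of all genes. The median log2 ratio was -0.05 (0.07 above all genes, but -0.20 relative to genes of like expression), with a range of -0.79 to 0.85. Its catalytic head had the most abundant subunit genes of the whole set. *Atp5b*, the catalytic beta subunit, had 20647 counts (643 FPKM) with TSA and 45689 counts (1407 FPKM) without, a ratio of 0.825 (0.811 to 0.838). *Atp5a1*, the alpha subunit, had 17141 counts (412 FPKM) with TSA and 35565 counts (846 FPKM) without, a ratio of 0.880 (0.864 to 0.896). The proportion of these partners, which alternate in the head, differed little, with an *Atp5b* level 1.56 times that of *Atp5a1* with TSA and 1.66 times without. The ratio of ratios was 0.938 (0.915 to 0.961), whose interval excludes 1. In the central stalk, *Atp5e*, the epsilon subunit, had the highest ratio of the complex, 1.80 (1.65 to 1.96), from 1063 counts with TSA and 1076 without, both at 150 FPKM.

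The peripheral stalk holds the head still against the rotor, and its 4 genes ranged from 0.712 for *Atp5o* to 1.41 for *Atp5j*. *Atp5o*, which links stalk and head, had 2157 counts (164 FPKM) with TSA and 5529 counts (414 FPKM) without, a ratio of 0.712 (0.677 to 0.748). The small membrane subunits *Atp5k*, *Atp5l* and *Atp5j2* had ratios of 1.52, 1.26 and 0.885. *Atp5s*, the lowest of the *Atp5* symbols at 0.580 (0.408 to 0.810), and *Atp5sl* at 1.69 (1.51 to 1.88) are named *Dmac2l* and *Dmac2* in RefSeq. Both are *Atp5* symbols that are not subunits, although the symbol rule counts them in complex V. *Atp5s* alone sets the lower end of the complex V range, and the next lowest log2 ratio was -0.49 (*Atp5o*). Without both genes the complex V median was still 0.07 above all genes.

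The ring of c subunits turns as protons pass, and 3 genes encode the same mature protein. *Atp5g3* made up most of the summed level, 60.4% with TSA and 57.3% without, *Atp5g1* 21.0% with TSA and 21.3% without, and *Atp5g2* 18.6% with TSA and 21.4% without. Relative to *Atp5g3*, *Atp5g2* gave a ratio of ratios of 0.821 (0.758 to 0.890) and *Atp5g1* 0.936 (0.873 to 1.004). The order of the 3 genes was led by *Atp5g3* in both libraries.

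**Figure D4:**
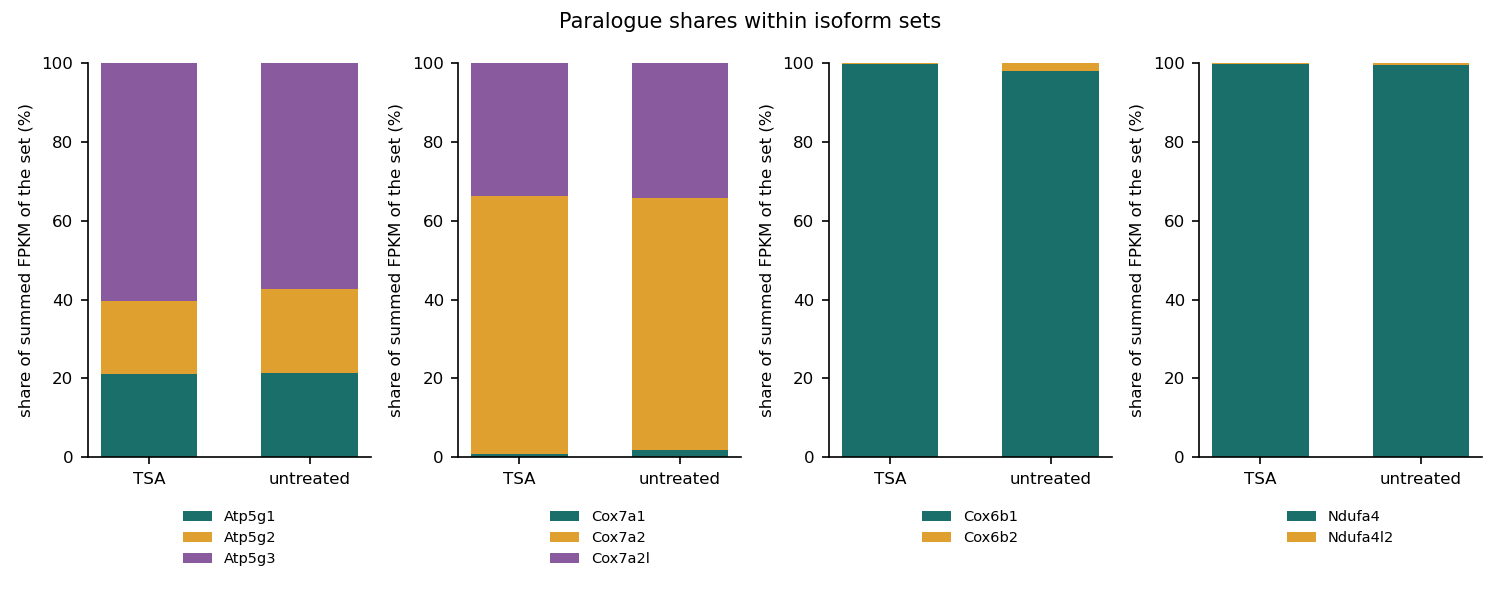
Share of each paralogue in the summed FPKM of its set (%), in the TSA library (left bar) and the untreated library (right bar), for 4 isoform sets. The *Atp5g* shares are alike in both bars. *Cox6b2* is visible in the untreated bar alone, at 2.06% (108 counts) against 0.137% (5 counts) with TSA.

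The gene known to inhibit complex V, which the symbol rule did not take, differed by far more than its subunits. *Atpif1*, the inhibitor that blocks ATP hydrolysis by the head, had 198 counts (7.77 FPKM) with TSA and 3108 counts (121 FPKM) without, 8.60-fold lower (7.45 to 9.98). Relative to *Atp5b* it was 7.09-fold lower (6.14 to 8.24), with a level of *Atp5b* 82.7 times that of *Atpif1* with TSA and 11.7 times without. The other 6 genes listed with it outside the rule were not called. *Cyc1*, the cytochrome c1 of complex III, had a ratio of 1.02. *Cycs*, cytochrome c, was at 0.813, and *Ndufab1*, the acyl carrier protein of complex I, at 0.745. *Usmg5*, *1110008F13Rik* and *2010107E04Rik* had ratios of 0.932, 1.09 and 1.06.

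Among genes that exchange the substrates of ATP synthase, a few differed by far more than any of its subunits. Of 8 tested, 2 were called higher and 2 lower, or 50%, near the 53.4% of all genes, and 2 were higher and 4 lower with total counts (75%, against 64.7%). *Slc25a4*, the adenine nucleotide carrier of heart and muscle, had 109 counts (5.76 FPKM) with TSA and 9751 counts (509 FPKM) without, 49.0-fold lower (40.6 to 59.8). *Slc25a5*, the carrier paralogue of growing cells, had 6776 counts (306 FPKM) with TSA and 13886 counts (620 FPKM) without, a ratio of 0.891 (0.865 to 0.917). The *Slc25a4* level was therefore 0.0188 times that of *Slc25a5* with TSA and 0.821 times without, 43.7-fold lower (36.1 to 53.3). *Slc25a25*, an ATP-Mg and phosphate carrier, had 11859 counts (111 FPKM) with TSA and 318 counts (2.94 FPKM) without, a ratio of 68.1 (60.9 to 76.3). *Slc25a23* of the same family had a ratio of 6.48, *Ucp2*, an uncoupling protein homologue, was 3.06-fold lower, and *Slc25a3*, the phosphate carrier, had an uncalled ratio of 0.580.

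Enzymes that pass electrons to ubiquinone or cytochrome c without complex I or II were mostly higher. Of 12 tested, 10 were called higher (83.3%) and 1 lower (8.33%), against 26% and 27.4% of all genes, with a median 1.82 above that of all genes on the log2 scale. With total counts 5 were higher (41.7%) and 1 lower, against 16% and 48.7% of all genes. *Etfdh*, which takes electrons from fatty acid oxidation to ubiquinone, had 4856 counts (125 FPKM) with TSA and 2887 counts (73.2 FPKM) without, a ratio of 3.07 (2.93 to 3.22). The flavoproteins that feed it, *Etfa* and *Etfb*, had ratios of 2.14 and 2.98. *Sardh* and *Dmgdh*, dehydrogenases of sarcosine and dimethylglycine that reduce these flavoproteins, had the most counts, with *Sardh* at 19239 counts (239 FPKM) with TSA and 5623 counts (69.0 FPKM) without, a ratio of 6.24 (6.06 to 6.43). *Sqrdl*, sulfide quinone oxidoreductase, had 4166 counts (86.3 FPKM) with TSA and 84 counts (1.72 FPKM) without, a ratio of 90.5 (72.9 to 114). *Suox*, sulfite oxidase, which reduces cytochrome c, had a ratio of 35.6, *Prodh*, proline dehydrogenase, 14.2, *Dmgdh* 6.77, *Gpd2*, the glycerol phosphate dehydrogenase, 3.48 and *Chdh*, choline dehydrogenase, 2.57. *Dhodh*, which makes pyrimidines, was the 1 lower gene, with 164 counts (4.14 FPKM) with TSA and 1829 counts (45.7 FPKM) without, 6.11-fold lower, and *Prodh2* was not called at 1.63. Several of these enzymes are hepatocyte genes, and the hepatocyte markers given above differed in the same direction; their part in these ratios was not tested.

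**Figure D5:**
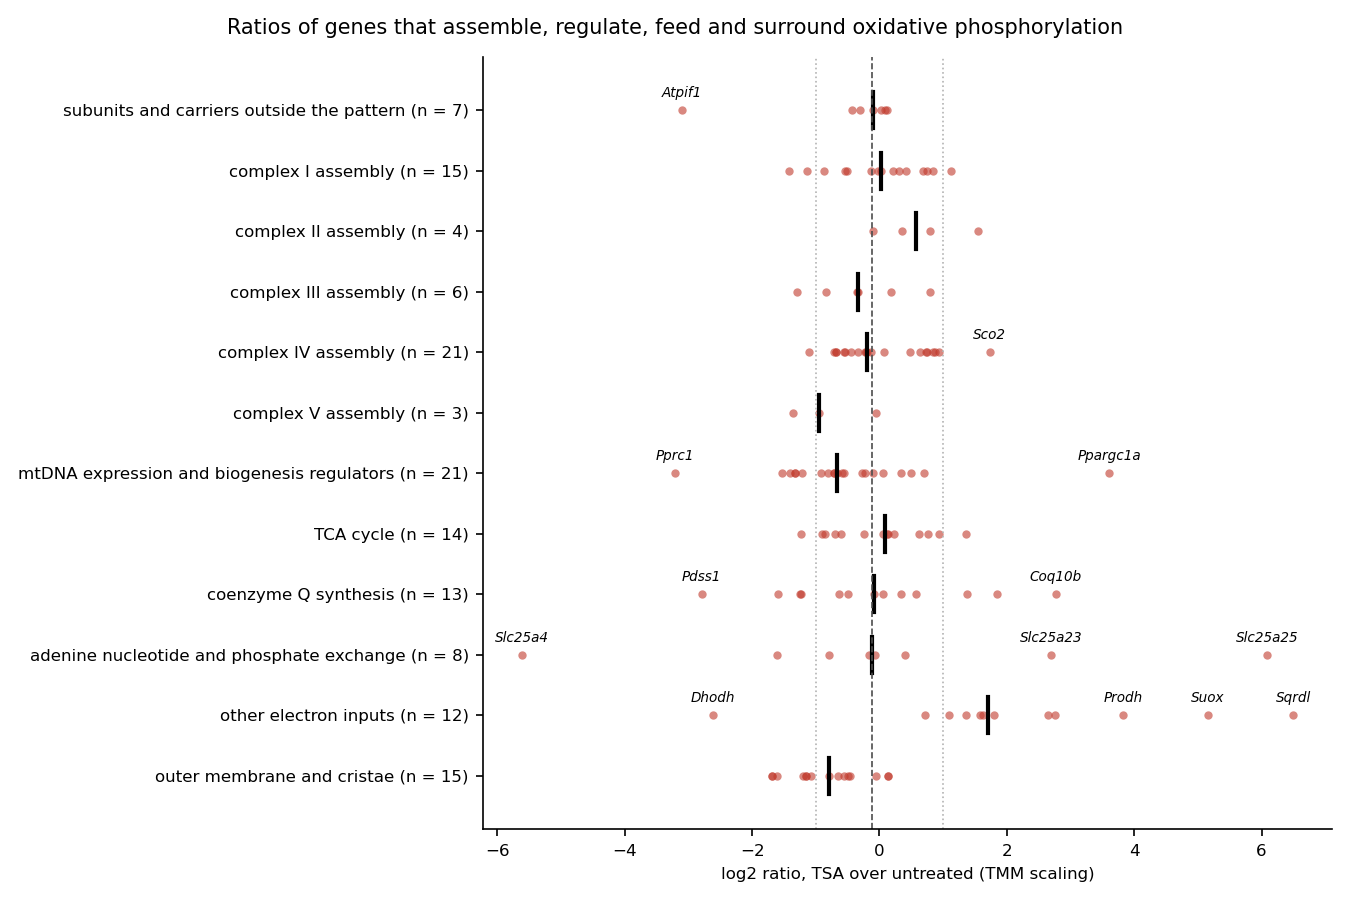
Log2 ratios (TSA over untreated, TMM scaling) of genes in 12 neighbouring lists (points, 1 per gene, with black bars for list medians); the dashed line is the median of all genes and the dotted lines mark 2-fold. Electron inputs lie mostly to the right of 2-fold, with *Sqrdl* at a ratio of 90.5, and *Slc25a4* lies farthest to the left at 49.0-fold lower.

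The TCA cycle, which supplies NADH and succinate, gave 1 gene called higher and 1 lower among 14, or 14.3% called, against 53.4% of all genes, with a median 0.20 above that of all genes. With total counts none was higher and 6 were lower (42.9%), against 16% and 48.7% of all genes. *Suclg2*, the GTP-forming succinyl-CoA ligase subunit, had a ratio of 2.56 (2.45 to 2.67), and *Idh3a*, the catalytic subunit of NAD-dependent isocitrate dehydrogenase, was 2.34-fold lower, with 814 counts with TSA and 3481 without. *Mdh2*, malate dehydrogenase, had the most counts of the list and an uncalled ratio of 0.655. *Fh1*, fumarase, which follows complex II in the cycle, was at 1.92 and not called.

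Of 49 assembly factors, 3 were called higher (*Ndufaf3*, *Sdhaf4* and *Sco2*) and 4 lower, or 14.3%, against 53.4% of all genes. With total counts none was higher and 22 were lower (44.9%), against 16% and 48.7% of all genes. *Sdhaf4*, which binds the *Sdha* protein during assembly, had 136 counts with TSA and 85 without, a ratio of 2.92 (2.21 to 3.88), and its list of 4 for complex II had a median 0.68 above that of all genes. *Ndufaf3* had a ratio of 2.17, while *Ndufaf5* was 2.68-fold and *Ndufaf7* 2.21-fold lower, among 15 factors for complex I (median 0.14 above all genes), of which *Acad9* and *Ndufaf4* had most counts and ratios of 0.979 and 1.16. None of 6 complex III factors was called (median -0.23 relative to all genes), and *Bcs1l*, which inserts the Rieske protein, had a ratio of 0.558 and *Uqcc1* one of 0.796. Among 21 complex IV factors, *Sco2*, a copper chaperone, had a ratio of 3.32 and *Coa4* was 2.14-fold lower (median -0.09), and *Coa5* and *Cox15*, with most counts, were at 1.68 and 0.611. Of the 3 complex V factors, *Atpaf1*, the chaperone of the beta subunit, was 2.56-fold lower with 93 counts with TSA and 434 without. *Atpaf2* was at 0.517 and *Tmem242* at 0.965 (0.860 to 1.08), neither of them called. The median of these 3, -0.84, is the value of *Atpaf2* alone.

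Regulators of mitochondrial gene expression gave 1 gene called higher (4.76%) and 6 lower (28.6%) among 21, against 26% and 27.4% of all genes, so the share lower was near that of all genes. With total counts 1 was higher and 15 were lower (71.4%, against 48.7%). Their median log2 ratio was -0.56 relative to all genes. *Ppargc1a*, the PGC-1alpha coactivator, had 214 counts (1.06 FPKM) with TSA and 32 counts (0.156 FPKM) without, a ratio of 12.2 (8.39 to 18.3). Its relative *Pprc1* had 245 counts (2.18 FPKM) with TSA and 4149 counts (36.5 FPKM) without, 9.28-fold lower. *Nrf1*, the factor whose motif was searched above, was 2.89-fold lower, with 146 counts with TSA and 770 without. *Gabpb1*, a GABP subunit, was 2.33-fold lower and its DNA-binding partner *Gabpa* had an uncalled ratio of 0.662. *Tfam*, which packages mitochondrial DNA, was uncalled at 0.529, *Esrra* at 1.26 and *Ppargc1b* at 0.937. *Peo1*, the mitochondrial helicase, and *Ssbp1*, the single-strand binding protein, were each 2.50-fold lower, and *Mterf1a* was 2.65-fold lower, from 12 counts with TSA and 58 without, so that it passed the minimum through the untreated library alone. *Lrpprc*, which stabilises mitochondrial RNA and had the most counts of the list, was at 0.682 and not called.

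Set beside other large complexes, the subunit genes lay highest. With the all-gene median as origin, the median log2 ratio was 0.32 for the 79 genes, -0.30 for 38 proteasome genes, -0.65 for 77 mitochondrial ribosomal genes and -1.42 for 95 cytosolic ribosomal symbols, 10 of which are *Rps6k* kinase genes. Of the proteasome genes 2 were called higher and 1 lower (7.89%, close to the 7.59% of the subunit genes), of the mitochondrial ribosomal genes none higher and 21 lower (27.3%), and of the cytosolic ribosomal symbols 1 higher and 84 lower (89.5%), against 53.4% of all genes. With total counts 28 proteasome, 64 mitochondrial ribosomal and 91 cytosolic ribosomal genes were lower (73.7%, 83.1% and 95.8%), against 19 of the 79 subunit genes (24.1%) and 48.7% of all genes. These differences between medians do not depend on scaling, and no test of them is given, since genes of a family in 2 libraries are not replicates. With total counts the order of the medians was the same, at -0.64 for the subunit genes, -1.26, -1.61 and -2.38 for the other families in the order given.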

How the data were processed

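PolyA RNA of mouse liver was analysed in 1 TSA library and 1 untreated library. The submitters' processing notes list DESeq, HISAT2, Bowtie2 and Trimmomatic, without roles or versions, and the sources used here do not state the build, annotation, counter or strand setting. The deposited counts are unscaled whole numbers of reads per gene symbol, per the file headers. The deposited FPKM values equal the authors' counts divided by gene model length and library total: for 14271 of 14271 genes counted in both libraries the implied length was whole (tolerance 0.1 base) and the same in each.

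Counts were scaled by TMM in edgeR 4.0.16 (R 4.3.3), with factors of 0.744 for TSA and 1.34 for untreated, which raises log2 ratios by 0.85 over total counts. Genes with at least 20 summed counts were kept. Intervals are exact conditional binomial (Clopper-Pearson, 95%), ratios of ratios use the conditional interval of Fisher's exact test, and all cover counting error alone. No molecular identifiers are described and PCR copies of a molecule are not independent, so the intervals may be too narrow even for that error. No p-value is given with 1 library per group. For a share at 0 counts the limit given is 3 counts. Scripts (Python 3.11.15, numpy 2.4.6, pandas 2.3.3, scipy 1.17.1, matplotlib 3.10.9) were tested on simulated data.

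The genes, the 12 neighbouring lists, the families and the markers were chosen with earlier results of these data known. Named genes are, per complex, those of highest level and of highest and lowest ratio, fixed core subunits and isoform sets, and, per list, 2 picked by summed counts and 2 by size of difference; further called genes were named after their values were seen. RefSeq symbols and promoters are of GRCm38.p6. Protein sequences were not used here. Values of 2 genes that the naming rule takes are not reported here. Alternatives were DESeq2 1.42.0 size factors, upper quartiles, total counts, FPKM, other minimums and folds, matched lengths and levels, and thinned depth.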

Additional observations from a re-analysis of the deposited data

How the results depend on the processing

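A call could not reverse direction between scalings, because it needs a 2-fold ratio and total counts shift log2 ratios by 0.85. Ratios of uncalled genes could: 53 of the 79 subunit genes had a ratio over 1 with TMM and 8 with total counts. Counts of calls depended on scaling and threshold. All genes gave 3382 higher and 3573 lower calls; with total counts 2084 and 6339, with FPKM 1983 and 6186, at 4-fold 1951 and 1640, and among genes with at least 1000 counts 1461 and 1726. The 5 higher and 1 lower subunit genes became 0 and 19 with total counts and with FPKM, 19 and 3 at 1.5-fold, and none higher at 4-fold; 3 were higher with the interval bound itself at 2-fold, and none lower at 1000 counts. DESeq2 size factors gave 7 higher and 1 lower (*Sdha* and *Uqcrb* added), upper quartiles 6 higher.

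Against genes of like expression, medians moved as follows: the subunit genes gave 0.11 (0.32 against all genes), complex I 0.24 (0.44), II 0.71 (0.97), III -0.10 (0.16), IV -0.032 (0.23), V -0.20 (0.07) and cytosolic ribosomal genes -1.67 (-1.42), so complexes III to V changed sign. With no minimum count the values were 0.15 for the subunit genes, 0.29 for complex I, 0.024 for IV and -0.091 for V. They were -0.17 for the neighbouring lists pooled (-0.03), -1.57 for cytosolic and -0.81 for mitochondrial ribosomal genes (-0.65). Complexes I and V and the mitochondrial ribosomal set held the same genes at both settings. For these sets it was the all-gene median that moved, taken over 15979 genes instead of 13027. The other sets named here gained genes, and the part of those genes was not tested. By counts without length, *Atp5g3* took 59.1% of its set with TSA and 56.2% without, *Cox7a2* 55.8% and 54.6%, and *Ndufa4* 98.9% without TSA. Taking out the 20 most abundant genes gave subunit shares of 1.29% with TSA and 1.79% without. The alternatives at 1000 counts, with *Ndufa4* genes placed in complex IV, without *Atp5s* and *Atp5sl* and without *Rps6k* genes were chosen after seeing the data. No paired analysis was possible because each group has 1 library and the labels give no replicate numbers. Depth limited the low genes: *Cox7a1*, *Ndufa4l2* and *Cox6b2*, and the regulator *Mterf1a*, rest on under 20 counts in the TSA library.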

Other observations

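The outer membrane and the cristae surround and shape the respiratory chain, and many of their genes were lower with TSA. Of 15 tested, 7 were called lower (46.7%) and none higher, against 27.4% and 26% of all genes, and with total counts 12 were lower (80.0%) and none higher, against 48.7% and 16%, with a median log2 ratio of -0.68 relative to all genes. The import receptor genes *Tomm20* and *Tomm22* and the import pore *Tomm40* were 3.22-fold, 3.03-fold and 3.22-fold lower, with *Tomm40* at 675 counts (23.7 FPKM) with TSA and 3966 counts (138 FPKM) without. *Vdac2*, a porin, was 2.31-fold lower, and *Vdac1*, the porin with most counts, was 1.73-fold lower and not called. The prohibitins *Phb* and *Phb2*, ring proteins of the inner membrane, were 2.24-fold and 2.10-fold lower, and *Immt*, the organiser of cristae junctions, was 2.23-fold lower. Its partner *Chchd3* and the fusion gene *Opa1* had uncalled ratios of 1.09 and 0.965.

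Genes for coenzyme Q, the lipid that carries electrons from complexes I and II to complex III, were called about as often as all genes. Of 13 tested, 3 were called higher and 4 lower, or 53.8% called, against 53.4% of all genes (26% higher and 27.4% lower), and 1 was higher and 6 lower with total counts (against 16% and 48.7%), with a median 0.03 above that of all genes. *Pdss1*, which makes the side chain, had 66 counts (1.32 FPKM) with TSA and 836 counts (16.6 FPKM) without, 6.94-fold lower, and its partner *Pdss2* was 2.34-fold lower. *Coq4* and *Coq6*, of the ring-modifying steps, were 3.03-fold and 2.37-fold lower. *Coq10b*, which binds the finished lipid, had 1118 counts (37.8 FPKM) with TSA and 299 counts (9.98 FPKM) without, a ratio of 6.82, its relative *Coq10a* had a ratio of 3.58, and the kinase-like *Adck3* one of 2.59. *Coq9* was at 1.49 and not called.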
